A study of Homo sapiens with 2 samples.

Results

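The genes of 4 protease and protease inhibitor families were examined in CAMA-1, an established breast cancer cell line that is estrogen receptor positive. They are the tissue kallikreins (KLK), the clade A serpins (SERPINA), the clade B serpins (SERPINB) and the genes of the WAP four-disulfide core domain (WFDC). All autosomal protein-coding genes of GENCODE release 44 whose symbol is one of these stems followed by digits were taken, which gave 50 genes of 19111. There were 15 KLK genes, 10 SERPINA genes, 13 SERPINB genes and 12 WFDC genes. Open chromatin had been profiled by ATAC-seq, an assay in which a transposase, Tn5, cuts accessible DNA in nuclei and leaves adapters for sequencing at the cuts. The series held 2 biological replicates of 50000 untreated cells each, grown as adherent cultures in DMEM with fetal bovine serum and antibiotics. Both belonged to a single condition, so no groups of samples could be compared, and 1 cell line stands for no more than itself. The samples are labelled as epithelial cells of the mammary gland.

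Tissue kallikreins are secreted serine proteases that cut after basic or aromatic residues and activate each other in cascades, and KLK3 is the prostate-specific antigen used in the clinic. Serpins trap a protease in a covalent complex, at the cost of their own reactive loop. Clade A serpins are mostly secreted by the liver into plasma, whereas clade B serpins lack a classical signal peptide and act largely inside cells, many of them in epithelium and leukocytes. WFDC proteins are small and secreted, and several inhibit serine proteases in the skin, airway and male reproductive tract. Members of each family lie side by side in gene clusters.

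The deposited data were lists of peaks, 245736 in replicate 1 and 259745 in replicate 2, with the fold enrichment of each peak over a single genome-wide background. The fold enrichment is the height of the peak plus 1, divided by the background plus 1, where the height is the number of reads stacked at its highest base. The background was 3.35 stacked reads in replicate 1 and 3.52 in replicate 2, and the lowest height that was called was 11 reads in both. The lists give no read totals, so the depth of each library is unknown from them, and a gene without a peak had no peak detectable at the depth and threshold used. Confidence intervals of heights are exact 95% Poisson intervals and cover counting error only. The background was not adjusted for copy number, and the part of copy number in the fold enrichments was not tested. Luminal breast epithelial markers, namely KRT8, KRT18, KRT19, EPCAM, GATA3, FOXA1 and ESR1, had a peak within 1 kb of a transcription start site (TSS) in both replicates in 7 of 7 cases, with fold enrichments of 31.3 to 147. All 4 basal or myoepithelial markers (KRT5, KRT14, TP63 and ACTA2) also had one, at 5.29 to 61.0, as did 2 of 4 blood markers, while PTPRC and CD3E had none. Over all autosomal protein-coding genes the share was 80.5%. A TSS peak was therefore not limited to genes that mark this cell type, and RNA was not analysed here.

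In CAMA-1, 25 of the 50 genes (50.0%) had a peak within 1 kb of any annotated TSS in both replicates, against 80.5% of all autosomal protein-coding genes. Replicate 1 had such a peak at 25 of the genes and replicate 2 at 30, and the 5 genes called in replicate 2 alone were KLK1, KLK9, KLK12, WFDC5 and WFDC12. For the other 20 genes, no TSS peak was called in either replicate. By family, both replicates held a TSS peak at 8 of 15 KLK genes, 4 of 10 SERPINA genes, 6 of 13 SERPINB genes and 7 of 12 WFDC genes. A peak anywhere in the gene body was more frequent, at 38 of 50 genes (76.0%) in both replicates, compared with 88.4% of all genes. Of these, 14 had a peak in the body but no TSS peak in both replicates, and 11 of the 50 genes had neither. Over all genes these shares were 8.79% and 10.7%. The 50 genes were shorter than most, with a median length of 11726 bp against 27877 bp over all genes. The part of gene length in the gene body shares was not tested.

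**Figure D1:**
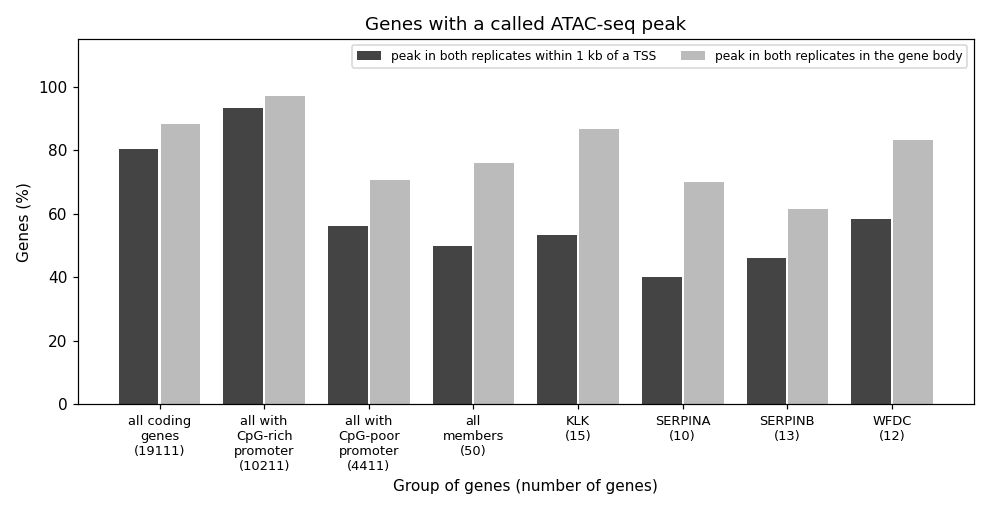
Percentage of genes with a called ATAC-seq peak in both replicates, within 1 kb of a TSS (dark bars) and in the gene body (light bars), for all autosomal protein-coding genes, for all such genes with CpG-rich or CpG-poor promoters, and for the 50 members and their 4 families. The bars of the members stand at 50.0% and 76.0%, next to 80.5% and 88.4% for all genes, and no family reaches 60% for TSS peaks.

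The strengths of the TSS peaks were low compared with those of other genes. Over the 25 genes called in both replicates, the median fold enrichment of the strongest TSS peak was 16.8 in replicate 1 and 15.0 in replicate 2, against 52.2 and 54.2 over all genes that had one. The median percentile of these 25 genes among all genes with a TSS peak was 14.0. A mean fold enrichment of at least 10 was reached by 15 of the 50 genes (30.0%), compared with 73.9% of all genes. The 4 strongest were SERPINB8 (80.3 and 88.2 in replicates 1 and 2), SERPINB1 (63.7 and 74.1), WFDC3 (66.0 and 66.3) and SERPINB5 (46.0 and 47.1). The replicates were close to each other. The log2 ratio of replicate 2 to replicate 1 ranged from -0.39 to 0.47 over the 25 genes, replicate 2 was the higher in 18 of them, and the counting intervals of the heights overlapped in every one. The median size of this log2 ratio was 0.20, against 0.11 over all genes. At SERPINA5 and KLK8 the strongest peak lay at different positions in the replicates, so their ratios and intervals compare different peaks.

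**Figure D2:**
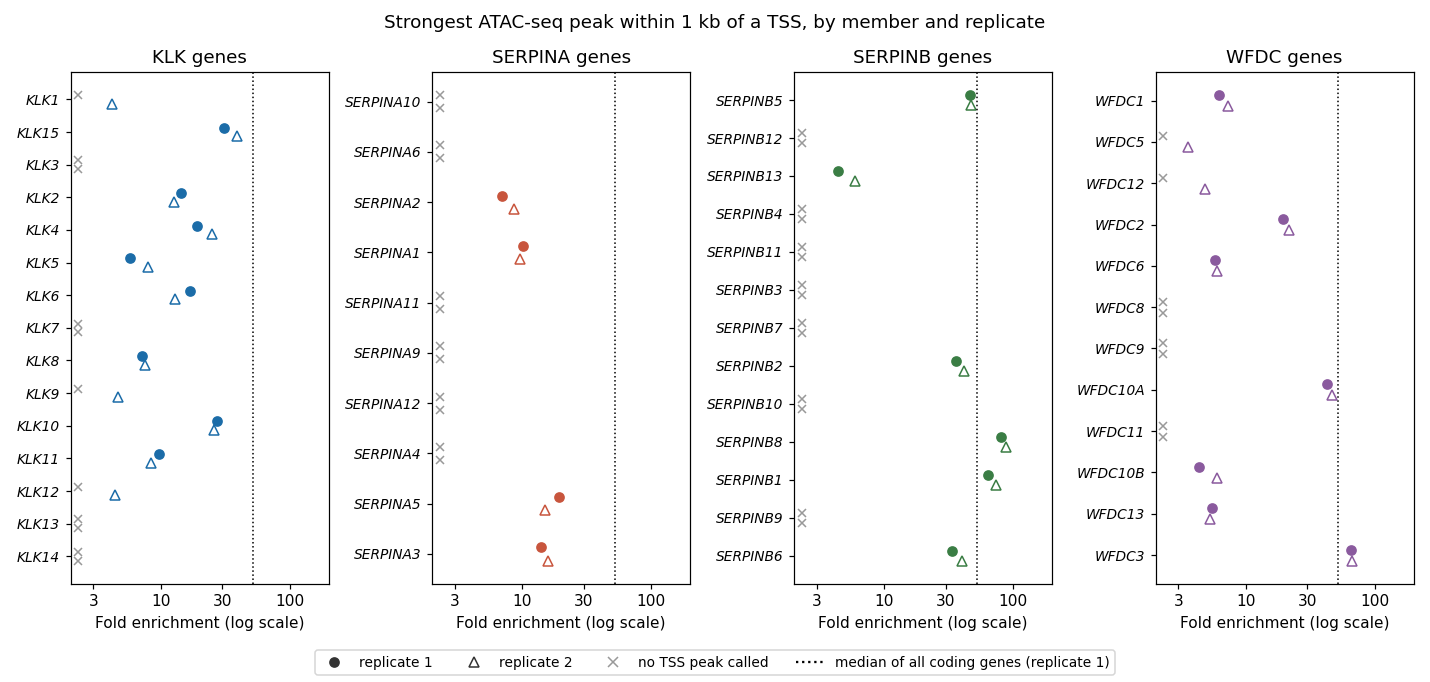
Fold enrichment (log scale) of the strongest peak within 1 kb of a TSS for each of the 50 genes, in cluster order, with filled circles for replicate 1, open triangles for replicate 2 and grey crosses at the left edge where no peak was called. The dotted line marks the median of all coding genes in replicate 1 (52.2), and SERPINB8, SERPINB1 and WFDC3 lie to its right in both replicates.

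**Figure D3:**
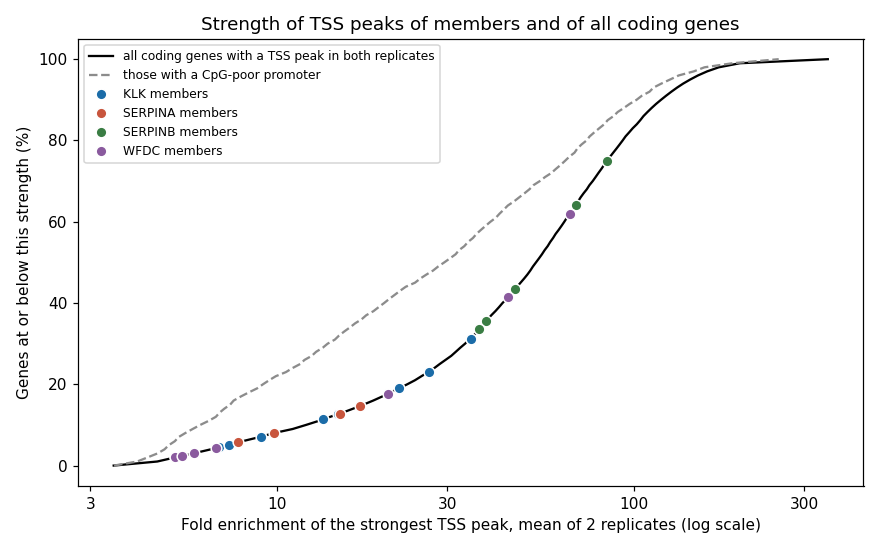
Cumulative share of genes (%) by the mean fold enrichment of their strongest TSS peak (log scale), for all coding genes whose TSS had a peak in both replicates (solid line) and for those with a CpG-poor promoter (dashed line). The points place the 25 genes on the solid line by family, and most lie below a fold enrichment of 30, with SERPINB8 the highest at a mean of 84.3.

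The promoters of these genes were mostly poor in CpG. RefSeq promoter windows, from 250 bases before to 50 after an annotated start, were found for 40 of the 50 genes and for 14622 autosomal coding genes in all. A window counted as CpG-rich when its GC content was at least 50% and its observed to expected CpG ratio at least 0.6. A gene counted as CpG-rich when any of its windows did. By this measure 7 of the 40 genes (17.5%) had a CpG-rich promoter, against 69.8% of all genes. These 7 were SERPINB1, SERPINB5, SERPINB6, SERPINB9, KLK13, WFDC2 and WFDC3. Among the 33 genes with CpG-poor promoters, 16 (48.5%) had a TSS peak in both replicates, against 56.1% of all genes with such promoters. Among the 7 CpG-rich genes, 5 had one, against 93.2% of all CpG-rich genes, and the exceptions were SERPINB9 and KLK13. The median fold enrichment of the strongest TSS peak was 14.2 and 12.7 in the CpG-poor genes of these families, against 29.0 and 29.2 in all CpG-poor genes.

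A TSS peak did not always cover the promoter. The RefSeq window itself lay under a peak in both replicates for 14 of the 40 genes (35.0%), against 72.3% of all genes. In the other 7 of the 21 genes with a TSS peak and a window (KLK4, KLK11, KLK15, SERPINB2, SERPINB13, WFDC6 and WFDC10B), the peak lay near another annotated start or beside the window. Since every annotated TSS of a gene was considered, several of the peaks described here lie near internal starts.

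The KLK cluster covers 265 kb of chromosome 19, chr19:50819146-51084245 in hg38, and held 38 regions with overlapping peaks in both replicates, 143 per Mb against 126 per Mb over the chromosome. Its strongest TSS peak was at KLK15, whose protease can activate the precursor of KLK3. The fold enrichment was 31.1 in replicate 1 and 38.7 in replicate 2, with heights of 134 reads (112 to 159) and 174 reads (149 to 202). This peak, chr19:50835568-50836414 in replicate 1, lay in an intron, with its edge 799 bp from the nearest annotated start of KLK15 (766 bp in replicate 2), and both RefSeq promoter windows of KLK15 were without a peak. KLK10, first described as a gene of normal breast epithelial cells that is lost in breast tumors, followed with 27.4 and 25.9 near an internal start. The window at the KLK10 promoter itself had weak peaks of 3.91 and 5.09. KLK4, which processes enamel matrix and is also expressed in prostate, reached 19.1 and 25.0. KLK6, known for its expression in the nervous system, had 16.8 and 12.8 at its promoter.

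KLK2 and KLK3 are the androgen-regulated kallikreins of the prostate and lie next to each other. KLK2 had a TSS peak of 14.3 and 12.6 at one of its 17 annotated starts, while the peak over its RefSeq promoter was weaker, at 8.05 and 5.97. KLK3 had no TSS peak, and the nearest peak lay 1404 bp from a start in replicate 1 and 1536 bp in replicate 2. The strongest region in the body of a KLK gene and more than 1 kb from every coding TSS was at KLK3 (chr19:50858795-50859250), with 6.90 and 7.96, which is the 39.5th percentile of such regions over the autosomes. The promoter windows of KLK2 and KLK3 were 79.3% identical. KLK5 and KLK7 act together in the shedding of skin cells. KLK5 had a TSS peak of 5.75 and 7.96, and KLK7 had none, with the nearest peak 1352 and 1364 bp from a start. KLK8, or neuropsin, had weak TSS peaks of 7.13 and 7.52, and the strongest of them lay at different positions in the replicates. KLK11, also known as a kallikrein of prostate and brain, had 9.66 and 8.40.

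The peaks called in replicate 2 alone were weak. KLK1, the kallikrein that releases kinins, had 4.20, KLK9 had 4.64 and KLK12 had 4.42, with heights of 18, 20 and 19 reads. The KLK9 peak lay 885 bp from the start, near the limit of 1 kb from inside, and KLK7 and KLK3 were among those just outside it. KLK14, which activates other kallikreins, had its nearest peak 2009 and 2064 bp from a start. The nearest peak to a start of KLK13 lay at 5273 and 5309 bp, the greatest distance of a KLK gene in replicate 2, whereas in replicate 1 KLK9 was farther away, at 6679 bp. KLK13 lay in the longest stretch of the cluster without a region, 23.1 kb. The promoters of KLK15 and KLK13 are shown because they belong to the gene with the strongest TSS peak and to the gene most distant from a peak in replicate 2 (RefSeq, GRCh38.p14, minus strand, chr19:50833525-50833824 and chr19:51064870-51065169). Capitals mark the letters of a TATA box, TATAAA, in KLK15 and of GC boxes, GGGCGG or its reverse complement, in KLK13.
KLK15 promoter: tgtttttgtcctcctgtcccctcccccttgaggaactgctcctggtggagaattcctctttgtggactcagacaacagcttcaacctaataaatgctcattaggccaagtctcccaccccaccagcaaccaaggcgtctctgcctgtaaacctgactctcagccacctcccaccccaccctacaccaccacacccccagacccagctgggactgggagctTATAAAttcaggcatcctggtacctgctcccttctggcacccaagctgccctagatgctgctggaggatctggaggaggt
KLK13 promoter: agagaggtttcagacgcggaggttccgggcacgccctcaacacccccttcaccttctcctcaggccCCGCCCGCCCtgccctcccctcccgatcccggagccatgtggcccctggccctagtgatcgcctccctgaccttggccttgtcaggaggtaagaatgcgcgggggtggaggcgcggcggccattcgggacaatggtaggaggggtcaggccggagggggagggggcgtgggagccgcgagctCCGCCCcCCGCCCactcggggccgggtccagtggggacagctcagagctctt
The KLK15 window held the TATA box 30 bases before the start but no peak, and the GC-rich KLK13 window, with 70.7% GC, had none either. Its observed to expected CpG ratio was 0.614, just above the limit of 0.6. The other RefSeq window of KLK13 (chr19:51065043-51065342) had a ratio of 0.450, which is not CpG-rich, and was also without a peak. The strongest region of the whole cluster was not at a start. It lay between genes at chr19:50922222-50922648, 11040 bp from the nearest TSS, that of KLK4, with fold enrichments of 46.9 and 44.9.

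The SERPINA cluster spans 344 kb of chromosome 14 (chr14:94280460-94624055) and held 39 regions, 114 per Mb against 73.2 per Mb over the chromosome. Only 5 of these regions lay within 1 kb of a coding TSS. SERPINA5, the protein C inhibitor, had the highest mean TSS peak strength, with 19.1 and 15.0, but the strongest peak was a different one in each replicate. The peak of 19.1 in replicate 1 had its edge 923 bp from the nearest start. The SERPINA5 promoter window itself had 14.3 and 15.0. SERPINA3, or alpha-1-antichymotrypsin, which inhibits cathepsin G, had 14.0 and 15.9 at its promoter, above SERPINA5 in replicate 2. SERPINA1, or alpha-1-antitrypsin, the main plasma inhibitor of neutrophil elastase, had 10.1 and 9.51. SERPINA2, an antitrypsin-related gene, had 6.90 and 8.62. All 4 genes lay below the median of all genes with a TSS peak.

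For the other 6 SERPINA genes, no TSS peak was called. The nearest peak lay 2298 bp from a start of SERPINA4 (kallistatin, an inhibitor of tissue kallikrein) in both replicates. It was 2327 and 2293 bp from SERPINA11, 2632 and 2658 bp from SERPINA6 and 6425 and 6355 bp from SERPINA9. SERPINA12, or vaspin, an adipokine that inhibits KLK7, was 17338 and 17348 bp from a peak, inside the longest stretch without a region (50.0 kb). SERPINA10, which inhibits coagulation factor Xa, was farthest in replicate 1, at 26947 bp, and 14304 bp away in replicate 2. The promoters of SERPINA5 (chr14:94581176-94581475, plus strand), where both replicates had a peak, and of SERPINA10 (chr14:94293007-94293306, minus strand) are shown, with GC boxes in capitals. They belong to the gene with the highest mean TSS peak strength and to the gene most distant from a peak in replicate 1.
SERPINA5 promoter: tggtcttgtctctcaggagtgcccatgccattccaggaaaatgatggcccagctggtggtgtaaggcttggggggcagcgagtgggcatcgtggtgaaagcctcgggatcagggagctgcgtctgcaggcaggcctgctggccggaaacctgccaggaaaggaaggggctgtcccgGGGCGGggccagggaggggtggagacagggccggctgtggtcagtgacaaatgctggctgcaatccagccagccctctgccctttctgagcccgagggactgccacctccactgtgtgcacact
SERPINA10 promoter: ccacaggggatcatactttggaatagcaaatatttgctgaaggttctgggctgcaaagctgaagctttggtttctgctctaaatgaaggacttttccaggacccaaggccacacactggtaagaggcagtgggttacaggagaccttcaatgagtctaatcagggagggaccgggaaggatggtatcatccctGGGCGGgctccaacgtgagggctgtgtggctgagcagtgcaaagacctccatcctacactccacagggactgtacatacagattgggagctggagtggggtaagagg
Each window held 1 GC box, so that motif alone did not separate the promoter under a peak from the one without. SERPINA6, which encodes the corticosteroid-binding globulin of plasma, had no TSS peak but the strongest distal region of any SERPINA gene body. This intronic region, chr14:94320087-94320687, reached 45.1 and 47.3, the 92.6th percentile of regions more than 1 kb from a coding TSS. Its central 300 bases (chr14:94320237-94320536, plus strand) are given as the strongest distal region inside a SERPINA gene.
SERPINA6 intronic region: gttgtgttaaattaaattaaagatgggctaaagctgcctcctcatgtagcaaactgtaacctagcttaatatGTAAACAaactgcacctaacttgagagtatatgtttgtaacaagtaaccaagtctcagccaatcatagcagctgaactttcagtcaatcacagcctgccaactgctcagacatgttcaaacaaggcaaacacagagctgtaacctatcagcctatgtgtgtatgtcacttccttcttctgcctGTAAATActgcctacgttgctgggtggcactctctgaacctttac
In this window no base is exonic, the GC content is 41.7%, and the capitals mark 2 forkhead core matches (TNTTTAC, here on the minus strand). The strongest region of the whole cluster lay between SERPINA5 and SERPINA3 (chr14:94598612-94599895), with 56.4 and 60.4, 13131 bp from the nearest start of SERPINA3. It lies inside the coding gene ENSG00000273259, which belongs to none of the 4 families and overlaps SERPINA3, and whose TSS had a peak in replicate 2 alone (5.09).

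The SERPINB genes form clusters on chromosome 18 (chr18:63476958-64019779, 10 genes) and on chromosome 6 (chr6:2832332-2972165, 3 genes). The chromosome 18 cluster had the lowest density of regions of all, 57.1 per Mb against 47.1 per Mb over the chromosome, yet it held the strongest TSS peak of the 50 genes. SERPINB8, an inhibitor of the proprotein convertase furin, had 80.3 and 88.2, with heights of 348 reads (312 to 387) and 398 reads (360 to 439). A start of the noncoding gene ENSG00000283667 also lay within 1 kb of this peak in both replicates. The peak lay inside HMSD as well, a coding gene outside these families. SERPINB5, or maspin, first described as a gene lost in breast carcinoma, had 46.0 and 47.1 at its CpG-rich promoter. SERPINB2, the plasminogen activator inhibitor of type 2, had 35.9 and 41.4 near an internal start, with no peak over its RefSeq window. SERPINB13, a cathepsin inhibitor of keratinocytes, had weak peaks of 4.37 and 5.97.

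The squamous cell carcinoma antigens SERPINB3 and SERPINB4, inhibitors of cysteine and serine proteases in squamous epithelium, had no peak within 1 kb. The nearest lay 14712 bp from SERPINB3 in both replicates, and 29901 and 29827 bp from SERPINB4, the greatest distance of the 50 genes. Their promoter windows were 98.7% identical, and the part of such near-identical sequence, which aligners cannot always place, in the missing peaks was not tested. Both lay with part of SERPINB11 in a stretch of 62.9 kb without a region. The nearest peak was 20744 and 20737 bp from SERPINB11, 16213 and 16279 bp from SERPINB10, 15600 and 15591 bp from SERPINB12, and 5428 and 5426 bp from SERPINB7. The promoters of SERPINB8 (chr18:63969831-63970130, plus strand) and SERPINB4 (chr18:63644207-63644506, minus strand) show the 2 ends of this range. Capitals mark overlapping TATAAA matches on both strands, AP-1 sites (TGANTCA, where N is any base) and an ETS core (CCGGAAG) in SERPINB8. None of the searched motifs was found in SERPINB4. The TATAAA matches of SERPINB8 lay 142 and 140 bases before the start, unlike the match of KLK15 at 30 bases.
SERPINB8 promoter: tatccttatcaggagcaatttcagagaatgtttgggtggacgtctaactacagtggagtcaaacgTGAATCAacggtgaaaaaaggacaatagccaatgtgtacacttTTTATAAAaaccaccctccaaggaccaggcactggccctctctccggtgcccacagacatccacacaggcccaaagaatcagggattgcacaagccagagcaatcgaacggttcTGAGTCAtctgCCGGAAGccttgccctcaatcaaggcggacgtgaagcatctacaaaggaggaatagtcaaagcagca
SERPINB4 promoter: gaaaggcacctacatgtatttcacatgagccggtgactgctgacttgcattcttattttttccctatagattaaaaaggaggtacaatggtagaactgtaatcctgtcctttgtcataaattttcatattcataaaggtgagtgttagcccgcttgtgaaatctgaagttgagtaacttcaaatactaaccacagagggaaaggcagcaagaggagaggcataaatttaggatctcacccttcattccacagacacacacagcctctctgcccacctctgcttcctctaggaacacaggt
Inside the gene bodies of this cluster, the strongest region more than 1 kb from a coding TSS began within the last bases of SERPINB10 and reached beyond it (chr18:63936088-63936504), with 60.7 and 63.7. SERPINB11 held an intronic region of 26.7 and 23.4, and SERPINB7, or megsin, one of 20.9 and 26.3, although neither had a TSS peak.

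On chromosome 6, 26 regions lay in 140 kb, or 186 per Mb, against 68.0 per Mb over the chromosome, the highest density of the clusters. SERPINB1, which protects neutrophils from their own elastase and cathepsin G, had 63.7 and 74.1 at its promoter, with heights of 276 reads (244 to 311) and 334 reads (299 to 372). SERPINB6, a cytoplasmic inhibitor of cathepsin G, had 33.6 and 40.2 at 1 of its 25 annotated starts and 28.3 and 29.6 over its upstream CpG-rich windows. SERPINB9, the inhibitor of granzyme B in cytotoxic lymphocytes, had no TSS peak, with the nearest one 5155 and 2007 bp away. All 3 genes had CpG-rich promoters, so SERPINB9 stood apart from its neighbors in accessibility but not in this measure. The promoters of SERPINB1 (chr6:2841814-2842113) and SERPINB9 (chr6:2903260-2903559), both on the minus strand, are printed for this contrast, with GC boxes, an ETS core (SERPINB1) and a TATA box (SERPINB9) in capitals.
SERPINB1 promoter: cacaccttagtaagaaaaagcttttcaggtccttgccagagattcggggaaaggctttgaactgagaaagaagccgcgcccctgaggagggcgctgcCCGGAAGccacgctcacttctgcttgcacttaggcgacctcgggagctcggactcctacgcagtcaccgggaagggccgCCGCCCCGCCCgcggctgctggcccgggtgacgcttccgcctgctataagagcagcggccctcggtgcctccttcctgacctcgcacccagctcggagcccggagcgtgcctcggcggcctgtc
SERPINB9 promoter: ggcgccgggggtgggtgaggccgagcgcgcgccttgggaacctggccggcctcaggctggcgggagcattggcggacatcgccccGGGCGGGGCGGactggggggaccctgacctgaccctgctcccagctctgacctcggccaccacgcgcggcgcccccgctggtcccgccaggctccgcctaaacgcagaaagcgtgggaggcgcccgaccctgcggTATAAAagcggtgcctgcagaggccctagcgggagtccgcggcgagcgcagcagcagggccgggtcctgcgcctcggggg
Both windows held 2 overlapping GC boxes. The SERPINB1 window was covered by a peak over all of its 300 bases, and no base of the SERPINB9 window lay under one. SERPINB6 held 8 regions in its body, and one of them, an intronic region at chr6:2952525-2953139, was nearly as strong as the SERPINB1 promoter, with 72.5 and 61.9, or the 96.6th percentile of distal regions. Its central 300 bases (chr6:2952682-2952981, plus strand) follow.
SERPINB6 intronic region: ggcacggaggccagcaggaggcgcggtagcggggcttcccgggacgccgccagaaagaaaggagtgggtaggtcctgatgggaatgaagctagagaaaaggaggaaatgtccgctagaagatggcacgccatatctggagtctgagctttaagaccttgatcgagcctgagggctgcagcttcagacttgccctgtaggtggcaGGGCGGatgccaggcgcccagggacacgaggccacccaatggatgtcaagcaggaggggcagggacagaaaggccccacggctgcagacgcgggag
No base of this window is exonic, the GC content is 62.0%, and the capitals mark a single GC box.

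The WFDC genes lie on chromosome 20 (chr20:45109452-45791932, 11 genes), apart from WFDC1 on chromosome 16. The chromosome 20 span of 682 kb held 85 regions, 125 per Mb against 99.1 per Mb over the chromosome, and it also contains genes of other families. WFDC3 had the strongest TSS peak, 66.0 and 66.3, with heights of 286 reads (254 to 321) and 299 reads (266 to 335), near internal starts. At its upstream promoter the peak reached 35.4 and 41.6, and the TSS peak of the adjacent gene DNTTIP1 was the same one. WFDC10A, a small gene of epididymis and testis, had 42.3 and 46.4 at its single annotated start. WFDC2, which encodes HE4, a serum marker of ovarian cancer, had 19.3 and 21.7 at its CpG-rich promoter.

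The remaining TSS peaks of the family were weak. WFDC6 had 5.75 and 5.97, with the edges of these peaks 791 and 782 bp from its start, WFDC13 had 5.52 and 5.31, and WFDC10B had 4.37 and 5.97. Replicate 2 alone had a peak at WFDC5 (3.54) and at WFDC12 (4.86), an inhibitor expressed in skin. WFDC9 had its nearest peak 1407 bp away in both replicates, WFDC8 13294 and 13282 bp and WFDC11 15051 and 15018 bp away. Both WFDC11 and WFDC10B nevertheless held a strong distal region in the gene body. That of WFDC10B (chr20:45685929-45686299) reached 43.7 and 52.2, the highest in a WFDC gene of this cluster, and that of WFDC11 32.9 and 32.1. The WFDC3 promoter (chr20:45791834-45792133, minus strand) is shown because it is the strongest gene of the cluster, with GC boxes and an ETS core in capitals, where the second GC box and the ETS core overlap.
WFDC3 promoter: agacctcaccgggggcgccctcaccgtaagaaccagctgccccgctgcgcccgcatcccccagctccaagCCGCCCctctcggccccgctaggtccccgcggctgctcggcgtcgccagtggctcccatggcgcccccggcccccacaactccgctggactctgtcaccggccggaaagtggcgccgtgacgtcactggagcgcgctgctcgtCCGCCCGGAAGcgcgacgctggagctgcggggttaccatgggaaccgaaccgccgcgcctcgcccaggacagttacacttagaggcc
This window was covered by a peak over its whole length in both replicates, had a GC content of 72.3% and was one of the 7 CpG-rich promoters. The windows of WFDC11 and WFDC1 are not shown.

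WFDC1, also called ps20, a growth inhibitor described in prostate stroma, had a weak TSS peak but the strongest region more than 1 kb from every coding TSS in the body of any of the 50 genes. Its TSS peak was 6.21 and 7.30. A region across an exon and an intron reached 79.2 and 81.2 (chr16:84312805-84313506). An intronic region at chr16:84308111-84308744 reached 49.7 and 45.8. The first was 2902 bp from the nearest WFDC1 start and at the 97.9th percentile of distal regions. Its central 300 bases (chr16:84313005-84313304, plus strand) are given as the most open distal sequence inside any of these genes.
WFDC1 exon and intron region: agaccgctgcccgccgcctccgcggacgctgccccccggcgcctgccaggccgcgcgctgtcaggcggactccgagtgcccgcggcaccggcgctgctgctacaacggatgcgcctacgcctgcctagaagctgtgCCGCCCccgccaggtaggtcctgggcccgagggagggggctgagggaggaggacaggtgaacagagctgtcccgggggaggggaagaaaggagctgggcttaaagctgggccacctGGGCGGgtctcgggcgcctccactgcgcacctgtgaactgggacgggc
Of these 300 bases, 149 are coding sequence of a WFDC1 exon and the rest intron, with a GC content of 73.0% and 2 GC boxes in capitals.

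Over all clusters and WFDC1, 225 regions were found in both replicates, 112 per Mb against 76.0 per Mb over the autosomes. Of these, 27.6% lay within 1 kb of a coding TSS, against 15.1% of autosomal regions. The median fold enrichment of the regions near a TSS was 11.6, against 19.5 over the autosomes, and that of the distal ones was 7.59 against 9.24. With all called peaks, the clusters held more regions per Mb than the autosomes, and the median strength was lower both near a TSS and away from it. At least 1 region more than 1 kb from every coding TSS lay in the body of 23 of the 50 genes, against 69.5% of all autosomal protein-coding genes. This share too was not adjusted for the shorter length of the 50 genes.

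**Figure D4:**
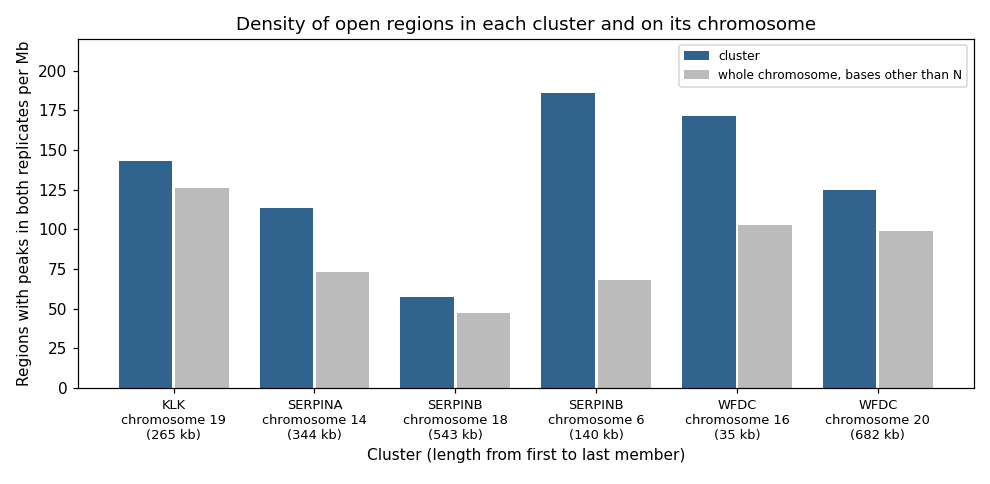
Regions with peaks in both replicates per Mb of each cluster (blue) and of its whole chromosome without N bases (grey). With all called peaks, every cluster stands above its own chromosome, from 57.1 against 47.1 per Mb for SERPINB on chromosome 18 to 186 against 68.0 per Mb for SERPINB on chromosome 6.

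The promoters shown above were searched, together with those of all 40 genes, for 8 motifs on both strands. A gene counted when any of its windows held the letters at any position. TATAAA occurred in 30.0% of the genes against 12.5% of all genes, and GGGCGG in 42.5% against 65.5%. TGANTCA, the AP-1 site, was found in 6 genes (15.0% against 8.02%), namely SERPINB2, SERPINB5, SERPINB7, SERPINB8, SERPINB12 and SERPINB13. These 6 lie in the chromosome 18 cluster, but this depends on the window. In single windows from 500 bases before to 100 after the most 5′ GENCODE start, 10 genes held the site (25.0% against 12.0%), of which 6 were KLK genes. The TATAAA shares depended on the window too, and were 25.0% against 21.6% in these single windows. CCGGAAG, the ETS core, occurred in 7 genes (17.5% against 16.9%), namely KLK5, KLK6, KLK10, SERPINB1, SERPINB6, SERPINB8 and WFDC3. All 7 were among the 21 genes with a window and a TSS peak in both replicates, and 0 of the 19 other genes had this motif. Not every match lay under a peak. The KLK10 window with the match was without a peak, and in KLK5 and KLK6 the match lay outside the part of the window under a peak. Over all genes with a window, the ETS core occurred in 19.6% of those with a TSS peak in both replicates and in 4.25% of the others. TNTTTAC, a core of forkhead factors, was found in 7.50% against 11.0%, and AACNNGTT, a grainyhead core, in 1 gene, SERPINB5 (2.50% against 4.27%). The estrogen response element (GGTCA followed 3 bases later by TGACC) occurred in 0 of the 40 genes and in 0.0616% of all genes with a window. The androgen response element (AGAACA followed 3 bases later by TGTTCT) was found in 0 genes of either group. This exact pattern therefore could not tell the groups apart, and elements with other letters were not searched. In the 163 distal regions of the clusters, the ETS core occurred in 5 (3.07%), against 1.42% of distal regions of the autosomes. The shares were 11.0% against 14.5% for AP-1, 18.4% against 19.6% for the forkhead core and 11.7% against 14.2% for TATAAA. They were 7.36% against 7.70% for GGGCGG and 6.13% against 6.47% for the grainyhead core. Neither response element was found with these exact letters in the regions of the clusters. Over the distal regions of the autosomes they were also rare, at 0.1% for the estrogen and 0.00899% for the androgen response element. These matches are of letters and do not show that a factor bound.

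Other inhibitors and proteases were examined in the same way, without a test against the 50 genes. Of 33 further genes, which comprise the remaining serpin clades, Kunitz and Kazal inhibitors, WAP inhibitors without a WFDC symbol, and trypsin-like proteases, 23 had a TSS peak in both replicates and 8 in neither. Over all autosomal protein-coding genes, 80.5% had a TSS peak in both replicates. The exceptions with a peak in replicate 1 alone were PLAU (4.60), the urokinase, and SERPIND1 (14.5), or heparin cofactor II. The highest values were those of SPINT1, an inhibitor of matriptase and of the activator of hepatocyte growth factor, at 211 and 213, and of SERPINH1, a collagen chaperone, at 187 and 178. The lowest value in both replicates was that of SPINK7, at 3.91 and 4.64. Inside the WFDC span, SLPI, an inhibitor of neutrophil elastase that carries WAP domains, had 44.2 and 51.1, whereas PI3 (elafin), the semenogelins SEMG1 and SEMG2, SPINT3 and SPINT4 had no TSS peak. EPPIN, a sperm-coating inhibitor next to WFDC6, had 14.5 and 15.3. Of the 12 coding genes that flank the clusters, 11 had a TSS peak in both replicates, beside the same 80.5% of all genes. The values ranged from 4.14 and 9.29 at ACP4, beside the KLK cluster, to 132 and 119 at WRNIP1, beside the chromosome 6 cluster, and KCNS1, beside the WFDC cluster of chromosome 20, had none. In both replicates, 4 of the 12, namely VPS4B, WRNIP1, NQO2 and ATP2C2, were above SERPINB8, the strongest of the 50 genes.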

How the data were processed

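The 2 lists of peaks, one for each biological replicate, were used. Per the submitters' processing notes, the authors trimmed the reads with Trim Galore 0.6.5, aligned them to hg38 with Bowtie2 2.3.5.1 and called peaks with MACS2 2.2.6, separately in each replicate. How MACS2 was set, how duplicate reads were treated and whether regions were excluded is not given in the sources used here. Each deposited line holds a peak and its score, the fold enrichment as a ratio over the caller's background, and the p-value and q-value as −log10. The score deposited by the authors was not used further. No read counts or summits were used.

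Heights and the background were derived from the steps between the deposited fold enrichments, and a Poisson distribution with this background returned the deposited −log10 p within 0.01. Every TSS of a gene in GENCODE release 44 was considered. A peak counted as a TSS peak when it came within 1 kb of a TSS, and as a gene body peak when it overlapped the gene by at least 1 bp. Peaks of both replicates that overlapped by at least 1 bp were merged into regions. Genes of 1 family on a chromosome formed a cluster where less than 1 Mb lay between neighbors. Promoter sequences were those of RefSeq on GRCh38.p14, and all 59 entries of the genes equalled hg38.

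Every gene with a TSS peak was named with its values, and the others by the distance to the nearest peak. Promoters were printed for the gene with the strongest TSS peak of each cluster and for the gene farthest from a peak, where an entry was found. Marker lists of other cell types gave TSS peaks in both replicates at 2 of 4 liver, 2 of 4 prostate and 3 of 3 skin genes, beside 80.5% of all genes. With 1 condition and 2 replicates, no test was made, and shares are set beside those of all autosomal coding genes. The genes, lists and motifs were chosen with earlier results of these data known. Alternatives were other distances to the TSS, single or coding TSSs, peaks with a −log10 q from 10 upward, the 50000 strongest peaks, a reciprocal overlap of 50%, wider spans, other promoter windows and limits, and leaving out either replicate. The functions used were tested on simulated data first. Python 3.11.15, numpy 2.4.6, pandas 2.3.3, scipy 1.17.1 and matplotlib 3.10.9 were used. The other assays and models of the study were not analysed here.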

Additional observations from a re-analysis of the deposited data

How the results depend on the processing

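With the 50000 strongest peaks of each replicate, 9 genes had a TSS peak in both replicates (18.0%, against 62.6% of all genes) and 15 a gene body peak (30.0%, against 72.5%). The regions in both replicates were then 3 in the KLK cluster, 5 in the SERPINA cluster, 7 and 8 in the SERPINB clusters of chromosomes 18 and 6, 2 at WFDC1 and 26 in the WFDC cluster of chromosome 20. With a −log10 q of at least 10, 19 regions remained in the SERPINB cluster of chromosome 18 and 3 at WFDC1. Spans widened by 50 kb held 60 regions for KLK, 43 for SERPINB on chromosome 6 and 29 for WFDC1. The density over the chromosomes was not recomputed for these alternatives. Whether each cluster stays above its chromosome among the strongest peaks was therefore not tested. Restricted to peaks more than 1 kb from every coding TSS, 23 genes had a gene body peak, against 69.9% of all genes. In windows from 500 bases before to 100 after the most 5′ GENCODE start of each gene, which differ from the RefSeq windows in width and in the starts used, the forkhead core was found in 20.0% of the genes against 20.8% of all genes, and TATA boxes in 25.0% against 21.6%. Leaving out each replicate gave 25 to 30 genes with a TSS peak, 38 to 42 with a gene body peak, and a median percentile of TSS peak strength of 14.2 to 15.6. Of the 61 alternatives tried for the main values, 45 left them within 1.5 times the reported count, or within the spread or interval of the value. Within 100 bp of a TSS the share was 38.0% against 74.3% of all genes, and within 3 kb it was 68.0% against 86.2%. No paired analysis was possible because both samples belong to 1 group. Called heights begin at 11 reads, and the part of depth in which weak peaks were called was not tested.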

Other observations

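The strongest regions inside the WFDC span of chromosome 20 lay at genes of other families. The TSS peak of PIGT, a subunit of the enzyme that attaches proteins to GPI anchors, reached 154 and 169. Inside SDC4, which encodes the heparan sulfate proteoglycan syndecan-4, a region of 4920 bp (chr20:45339773-45344692), 127521 bp from the nearest WFDC start, reached 111 and 112. Its percentile among distal regions of the autosomes was 99.3.

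HMSD, a gene whose start lies between SERPINB10 and SERPINB8, had a TSS peak of 39.1 and 32.7. ACP3, the prostatic acid phosphatase, had a TSS peak of 85.4 and 71.6, whereas HOXB13 and FOLH1, also markers of prostate, had none. Of 3 markers of differentiated skin, IVL had 53.6 and 57.5, whereas FLG had 4.83 and 5.75 and LORICRIN 5.75 and 5.09.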
